A study of Bos taurus with 17 samples.

Results

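Among 8 RNA libraries from bovine morulae cultured with recombinant WNT5A, 3 were much shallower than the rest. Libraries 4, 12 and 14 held 34.0, 45.5 and 52.4 mega-reads (M), against 140.2, 184, 158, 200.1 and 141 M in WNT5A libraries 1, 2, 7, 10 and 11. The 9 control libraries held 125 to 162 M. The members were chosen by these totals alone, as the WNT5A libraries under 100 M reads, and make up 3 of the 17 libraries in all. The totals are therefore a description, and no library lay between 52.4 and 125 M. Both sets received WNT5A, so the comparison is one within the treated embryos and not one of treatment against control.

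Each library came from a pool of 10 morulae that had developed in vitro, and poly(A) RNA was sequenced after a column extraction. The sources used here do not give the dose of WNT5A, the breed or whether pools came from separate rounds of fertilisation. The p-values below set the difference between the sets against the spread between these pools, which may be technical. Read depth differed between the sets by choice, so its part in a difference cannot be told apart from that of other traits of these libraries. The deposited values are RPKM, reads per kilobase of exon, scaled to library size. Differences below are on the scale of log2(RPKM + 1), as libraries 4, 12 and 14 minus the other 5, for genes that reached 0.5 RPKM in 3 or more of the 8.

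A morula is the ball of cleaving cells that compacts, seals its outer cells with junctions and then forms the blastocyst. WNT5A is a secreted ligand best known for signals that do not run through beta-catenin. A poly(A) library is meant to hold messenger RNAs, including those that mitochondria transcribe, and to leave most ribosomal and small RNAs behind. Shares of these RNA classes are therefore among the first things in which libraries of a tiny sample can be compared.

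Both sets carried a morula transcriptome. All 15 morula markers had reads in every WNT5A library, and their summed level was 4013 to 4390 RPKM in libraries 4, 12 and 14, against 4494 to 7239 RPKM in the other 5 and 3809 to 5312 RPKM in controls. Of these markers, POU5F1 and GATA6 fell and none rose. Genes of cumulus and granulosa cells summed to 23.0 to 29.6 RPKM in libraries 4, 12 and 14, against 15.3 to 32.6 RPKM in the other 5 and 9.87 to 43.0 RPKM in controls, over 14 genes. INHA and CYP11A1 were at 0 in all 3. Blood and immune genes summed to 12.9 to 28.3 RPKM in the 3, against 9.66 to 22.3 RPKM in the other 5 and 12.3 to 64.4 RPKM in controls, with TYROBP at 0 in the 3. Sperm genes summed to 13.3 to 18.5 RPKM in the 3, against 14.4 to 21.4 RPKM in the other 5 and 8.97 to 26.4 RPKM in controls. The sums overlapped between the sets for each of these other cell types, although AMH and STAR, 2 of the 5 cumulus and granulosa genes tested, fell (40%, beside 10.5% over all genes). AMH passed the filter through the other 5 alone, and 1 of the 5 fell with any single library other than 14 left out. In pooled embryos, fewer cells of a type and less RNA per cell cannot be told apart.

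The clearest feature of libraries 4, 12 and 14 was a single unnamed gene. ENSBTAG00000051364, which has 3 exons and 1314 bases and no symbol in the table, had 25469.9, 44071 and 27898 RPKM in libraries 4, 12 and 14. It had 12.3, 6.34, 11.1, 23.7 and 11.2 RPKM in libraries 1, 2, 7, 10 and 11, and 5.01 to 29.7 RPKM in controls. The lowest of the 3 stood far above all 14 others, and the ratio of means was 2515 against the other WNT5A libraries. This one gene took 3.51% to 5.64% of the reads in libraries 4, 12 and 14, against at most 0.00302% in the other 5 and at most 0.00381% in controls. The log2 difference was 11.26 ± 0.31 (SE), with an adjusted p of 8.97e-10 in limma. ENSBTAG00000052369, a single-exon gene of 2154 bases without a symbol, had 4935, 2704 and 1411 RPKM in libraries 4, 12 and 14, against 82.7, 47.0, 128, 143 and 63.7 RPKM in libraries 1, 2, 7, 10 and 11.

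Rows of very short RNAs rose with it. The table has 2 rows named bta-mir-2887-2, each 55 bases long, and the more abundant one had 65248, 731511 and 110917 RPKM in libraries 4, 12 and 14. The other 5 had 455, 85.2, 753, 1238 and 56.8 RPKM in that row, and controls reached 2677 RPKM. Together these rows took 0.394% to 3.98% of the reads of the 3 libraries, against at most 0.00687% in the other 5, with library 12 highest by far. The rows carry 1 name and 1 length, so how reads were split between them is uncertain. The 5.8S ribosomal RNA row, from one of the RNAs of the large ribosomal subunit, had 5087, 2097 and 945 RPKM in libraries 4, 12 and 14, against 94.0, 208, 199, 221 and 121 RPKM in libraries 1, 2, 7, 10 and 11. Here library 4 was highest, so the 3 libraries did not rank alike in these RNAs. Their log2 differences were 9.22 ± 1.19 for that bta-mir-2887-2 row and 3.75 ± 0.44 for 5.8S ribosomal RNA, with limma adjusted p of 0.00198 and 0.000308.

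**Figure D1:**
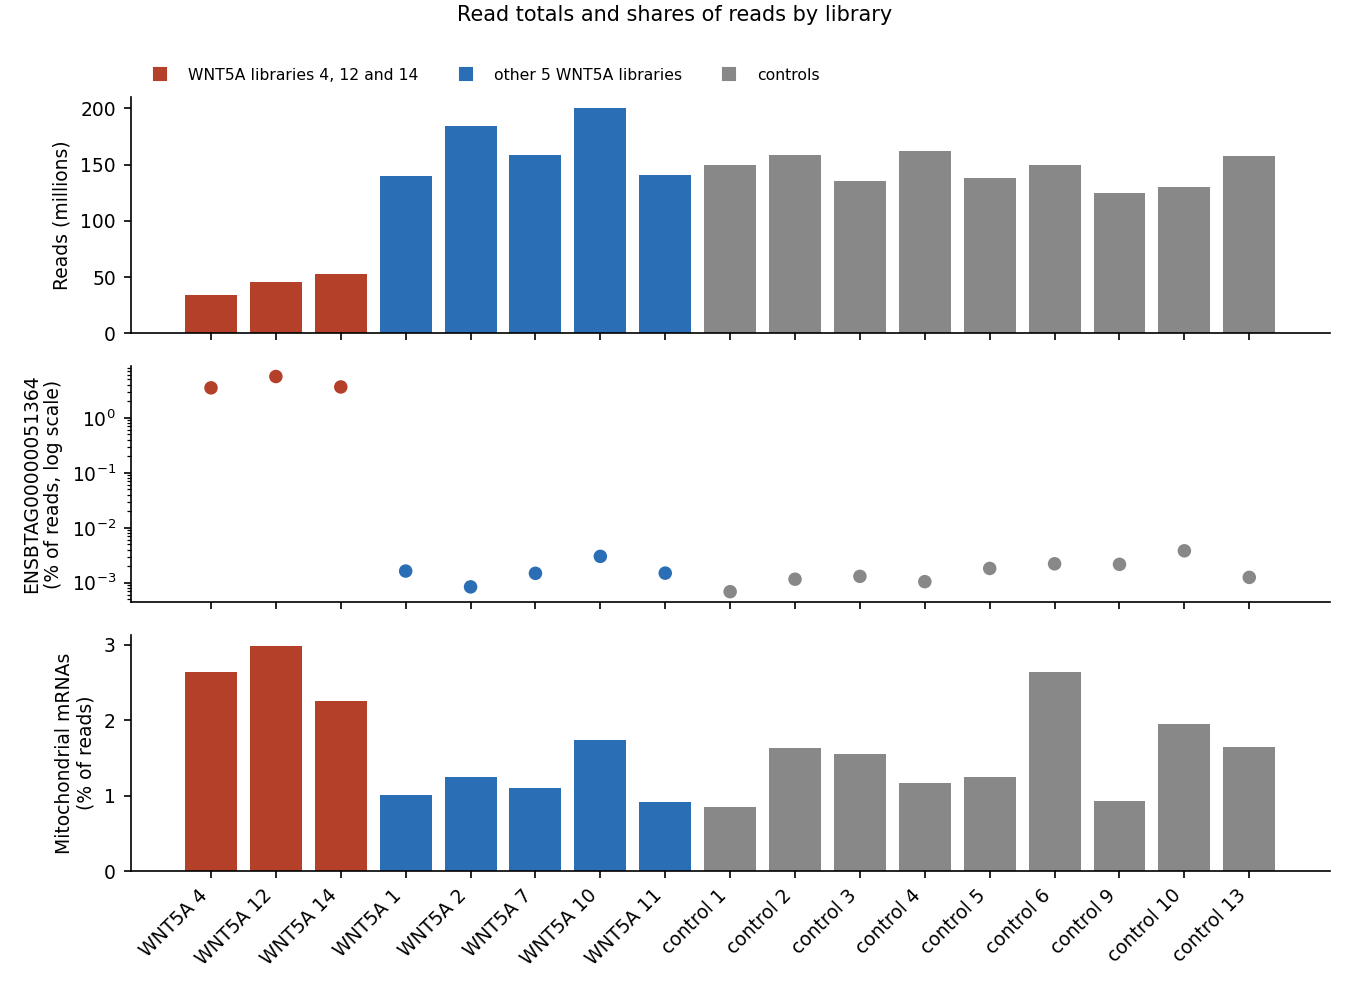
Reads in Ms, share of reads on ENSBTAG00000051364 in percent on a log scale, and share of reads on the 13 mitochondrially encoded messenger RNAs in percent, for each library, with 1 bar or point per library and WNT5A libraries 4, 12 and 14 at the left. These 3 have the fewest reads, at most 52.4 M, and at least 3.51% of reads on the unnamed gene, while their mitochondrial share of 2.25% to 2.98% overlaps that of control 6 at 2.63%.

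Across 13425 genes tested, 2402 (17.9%) passed an adjusted p of 0.05 in limma, 995 of them (7.41%) higher and 1407 (10.5%) lower in libraries 4, 12 and 14. Without adjustment, 4392 genes had p under 0.05. All 3 libraries lay above all of the other 5 for 1443 genes (10.7%) and below all of them for 1791 (13.3%). Of the genes called, 623 were higher and 591 lower by more than 1 on the log2 scale, and 105 and 32 by more than 2. The filter let in 32 of the genes that rose through libraries 4, 12 and 14 alone, and 102 of those that fell through the other 5 alone, so these could be called in 1 direction only. The median of all genes was -0.08. Read depth, the unnamed gene and the short rows above differed between the same libraries, and with every gene that took 0.5% of a library's reads left out, 1033 genes were higher and 1177 lower. When each library was centred on its own median, 819 genes were higher and 1815 lower, and a precision-weighted limma fit (voom) on the recovered reads gave 743 higher and 584 lower. Without library 7, 682 genes were higher and 896 lower.

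Controls had no part in the split. For 749 of the 995 genes that rose (75.3%), the mean of libraries 4, 12 and 14 fell outside the range of the 9 controls, while the mean of the other 5 did so for 16 (1.61%). For the 1407 genes that fell, the counts were 509 (36.2%) for the mean of the 3 and 24 (1.71%) for that of the other 5, so most of these falls stayed inside the control range. Over all genes tested they were 2365 (17.6%) for the 3 and 296 (2.20%) for the other 5. Controls 2, 3 and 6, which detected the fewest genes, widened that range. Without them the mean of the 3 lay outside for 922 of the genes that rose (92.7%), 981 of those that fell (69.7%) and 4353 of all genes (32.4%), and the mean of the other 5 for 36, 72 and 695. Across genes, Pearson's r of log2 values was 0.918 to 0.941 among the 3 pairs within libraries 4, 12 and 14, 0.901 to 0.942 between them and the other 5, and 0.960 to 0.984 among the 10 pairs within the other 5. The range within the 3 thus lay inside the range between them and the other 5. Between controls and the other 5, r was 0.861 to 0.906 for controls 2, 3 and 6 and 0.927 to 0.972 for the remaining 6. These are descriptions across genes of shared annotation, and genes are not independent replicates.

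Named genes with large rises came from unrelated functions. MIF, which encodes a secreted cytokine, had 349.9, 295 and 280.0 RPKM in libraries 4, 12 and 14, against 13.7, 3.23, 16.5, 18.8 and 9.20 RPKM in libraries 1, 2, 7, 10 and 11. The controls had 3.28 to 17.7 RPKM, and the difference was 4.72 ± 0.40 with a limma adjusted p of 4.63e-05. FSCN1, the actin-bundling protein fascin, had 34.1, 39.6 and 35.5 RPKM in the 3, against 1.74, 1.30, 2.28, 3.09 and 2.11 RPKM in the other 5. Its groups were far apart and tight, with means of 36.4 ± 2.87 RPKM in the 3 (SD, n = 3) and 2.10 ± 0.666 RPKM in the other 5 (SD, n = 5). PAM16, a subunit of the motor that pulls proteins into mitochondria, had 141, 134 and 102 RPKM in the 3, against 11.3, 3.17, 6.40, 6.55 and 4.80 RPKM in the other 5. EFHD2, a calcium-binding actin regulator, had 70.0, 86.3 and 99.1 RPKM in the 3, against 4.83, 6.26, 7.18, 10.0 and 6.04 RPKM in the other 5. Genes were named for a large rise only where the sets did not overlap, so their separation is part of that rule.

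SAP30L, a member of a histone deacetylase complex, averaged 103 ± 45.5 RPKM in libraries 4, 12 and 14 and 6.54 ± 3.02 RPKM in the other 5 (SD, n = 3 and 5). CHMP4B, a subunit of the ESCRT machinery that cuts membranes, averaged 37.2 ± 14.6 RPKM in the 3 and 2.53 ± 0.773 RPKM in the other 5. IGFBP2, which binds insulin-like growth factors outside the cell, rose most among named protein-coding genes of the nuclear genome with at least 100 RPKM in controls. It had 769.5, 1145 and 885 RPKM in the 3, against 233, 139.5, 266, 325 and 226 RPKM in the other 5 and 92.3 to 315 RPKM in controls. The difference was 2.0 ± 0.24, with a limma adjusted p of 0.00034, and no control reached the lowest of the 3.

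Genes with large falls included several at or near 0 in libraries 4, 12 and 14. TUBB6, a beta-tubulin, had 0.0502, 0.0269 and 0.0688 RPKM in the 3, against 10.0, 2.77, 5.76, 7.09 and 4.29 RPKM in the other 5. Controls ran from 0.0499 to 22 RPKM, so the low values of the 3 lay at the bottom of the control range. OPA3, a mitochondrial membrane protein, had 2.0, 5.99 and 5.99 RPKM in the 3, against 24.2, 23.4, 33.3, 21.4 and 35.3 RPKM in the other 5, with no control under 13.5 RPKM. APOE, the lipid carrier apolipoprotein E, had 1.72, 11.8 and 3.0 RPKM in the 3, against 16.2, 19.3, 36.4, 32.9 and 40.5 RPKM in the other 5. The differences were -2.41 ± 0.30 for OPA3 and -2.45 ± 0.45 for APOE, with limma adjusted p of 0.000454 and 0.0037. TUBB6 passed the filter through the other 5 alone, so its values are given without a test. The calls of OPA3 and APOE were lost in the voom fit.

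Other genes chosen by size of fall behaved in the same way. ZNF584 and TRIM68 averaged 3.63 ± 3.17 and 0.646 ± 0.429 RPKM in libraries 4, 12 and 14, and 20.8 ± 6.37 and 6.22 ± 2.10 RPKM in the other 5 (SD, n = 3 and 5). ZNF584 is a zinc finger protein, and TRIM68 belongs to a family of ubiquitin ligases. These calls, too, were lost in the voom fit. The microRNA row bta-mir-12034 had no read in the 3 libraries, against 8.62 to 20.7 RPKM in the other 5 and 0 to 48.9 RPKM in controls, which is at least 13.4-fold lower against a floor of 3 reads per library. That row, without a read in the 3, passed the filter through the other 5 alone and could only be called lower. At the depth of the 3, absence cannot be told from a low level. Of the genes that fell, 56 had no read in any of the 3, and the same limit holds for them.

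The abundant genes chosen by size of fall had smaller differences. RNH1, the ribonuclease inhibitor of the cytosol, had 117, 138 and 161 RPKM in libraries 4, 12 and 14, against 327, 344, 381, 370.2 and 443 RPKM in the other 5 and 237 to 448 RPKM in controls. PLD6, a mitochondrial phospholipase of the piRNA pathway, had 70.5, 50.6 and 70.3 RPKM in the 3, against 147, 159, 189.5, 198 and 179.6 RPKM in the other 5. MCM5, a subunit of the replicative helicase, had 98.4, 89.3 and 84.2 RPKM in the 3, against 268, 225, 244, 174 and 309 RPKM in the other 5. Each was more than 2-fold lower in the mean, by 2.69-fold for RNH1, 2.74-fold for PLD6 and 2.69-fold for MCM5. SLC7A4, a transporter-family protein, GSN, the actin-severing protein gelsolin, and CYP2S1, a cytochrome P450, were 2.87-fold, 2.70-fold and 2.47-fold lower. Limma adjusted p ran from 0.000256 for RNH1 to 0.00852 for GSN over these 6 genes.

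**Figure D2:**
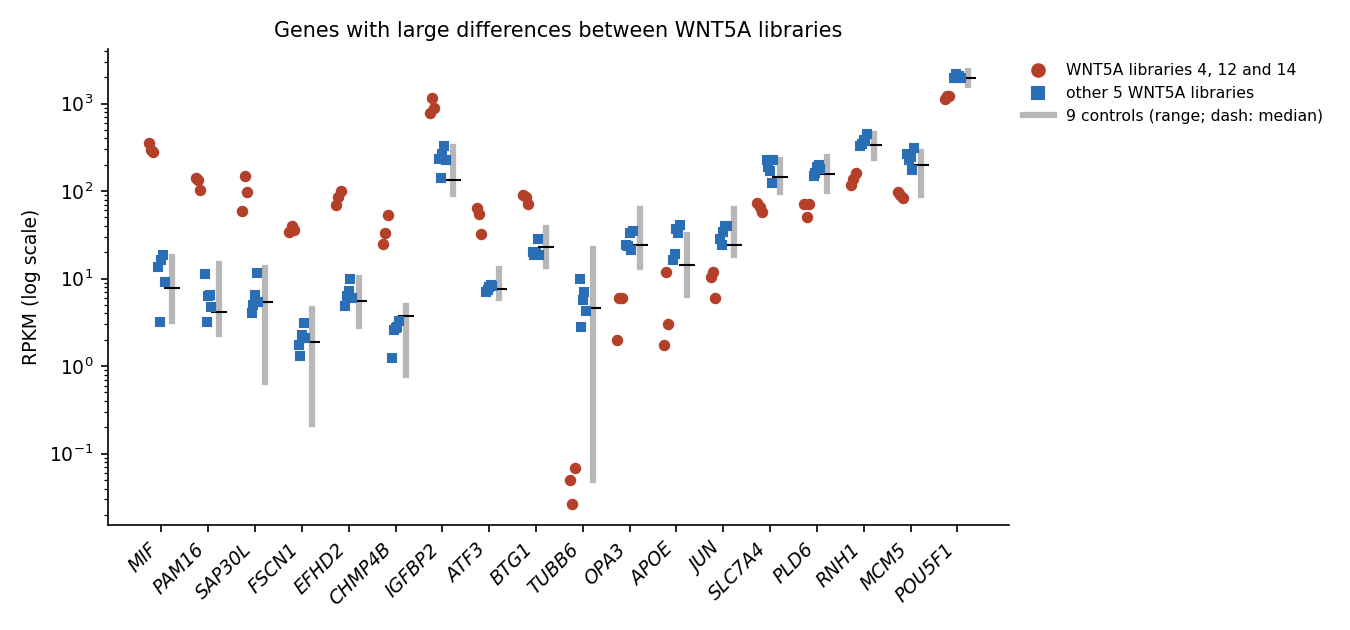
RPKM on a log scale of 18 named genes, with a point for each of WNT5A libraries 4, 12 and 14, a square for each of the other 5 and a grey bar for the range of the 9 controls with a dash at their median. MIF, PAM16, SAP30L, FSCN1, EFHD2 and CHMP4B lie above every other library in the 3, whereas TUBB6 lies at the bottom of its control range and POU5F1, at 1125 to 1234 RPKM, below every control.

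Mitochondrially encoded messenger RNAs rose together. These 13 genes encode subunits of the respiratory chain and ATP synthase and are read from long shared transcripts of the mitochondrial genome. All 13 were tested, 10 rose and none fell, beside 7.41% higher over all genes. Their median difference was 1.28, against -0.08 for all genes tested. Relative to the mean of the other 5, the median over the 13 was 1.30, 1.53 and 1.12 in libraries 4, 12 and 14, between -0.44 and 0.73 in the other 5 taken singly, and between -0.55 and 1.53 in controls. The highest control therefore reached the level of the 3. The count was 9 to 13 with each library left out in turn, 13 without library 10.

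Within this group the size of the rise differed widely. ND4L, a small subunit of complex I, had 2213, 2864 and 1183 RPKM in libraries 4, 12 and 14, against 143, 158, 191, 271 and 155 RPKM in the other 5 and 124 to 386 RPKM in controls. Its difference was 3.45 ± 0.28, with a limma adjusted p of 3.42e-05, and every one of the 3 exceeded every other library of the study. ND4, which follows ND4L on the same messenger and shares 7 bases with it, had 2836, 3697 and 1897 RPKM in the 3, against 436, 574, 596, 897 and 491 RPKM in the other 5, a difference of 2.22 ± 0.25. ND1, another complex I subunit, had 1594, 1835 and 1146 RPKM in the 3, against 217, 329, 289, 501 and 241 RPKM in the other 5, a difference of 2.31 ± 0.25.

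Smaller rises were found in more of these genes. ND2, ND5 and ND6, the last of them read from the opposite strand, differed by 1.5 ± 0.26, 1.21 ± 0.25 and 1.59 ± 0.28. COX1 and COX2, catalytic subunits of cytochrome oxidase, differed by 1.28 ± 0.26 and 0.96 ± 0.20, and CYTB of complex III by 0.78 ± 0.21 with a limma adjusted p of 0.0262. The CYTB call was lost without library 1, 4, 7, 11 or 12. ATP6, a subunit of the ATP synthase, had 5568, 6229 and 4726 RPKM in the 3, against 1697, 2290.2, 2153, 3182 and 1791 RPKM in the other 5, a difference of 1.34 ± 0.20. ATP8, which overlaps ATP6 by 40 bases on the same messenger, differed by 0.51 ± 0.20 with a limma adjusted p of 0.103.

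COX3 and ND3 did not pass either, at 0.37 ± 0.20 and 0.46 ± 0.23 with limma adjusted p of 0.209 and 0.179. COX3 had 6266, 6486 and 7111 RPKM in libraries 4, 12 and 14, against 4666, 5473, 4601, 7579 and 3906 RPKM in the other 5, so library 10 lay above all 3. Per length, COX3 was the most abundant of these RNAs in each of the 3, and ND3 the least. The sources used here do not give how overlapping bases were counted or with which strand setting.

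**Figure D3:**
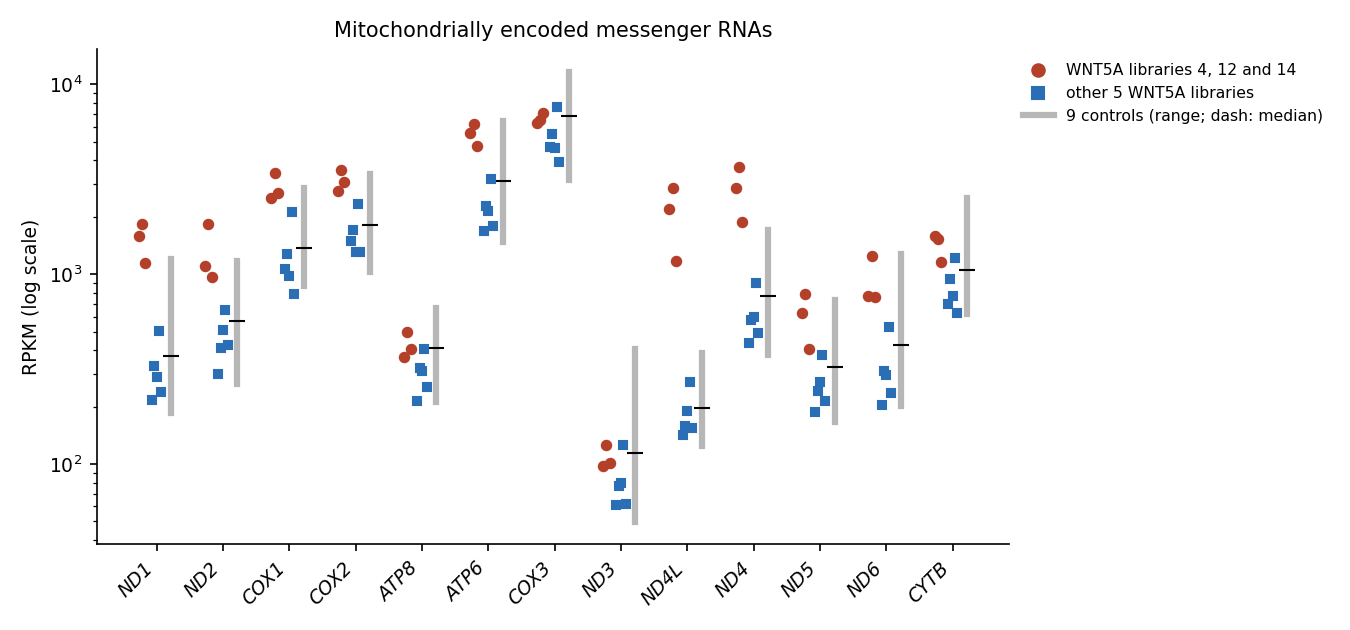
RPKM on a log scale of the 13 mitochondrially encoded messenger RNAs, with a point for each of WNT5A libraries 4, 12 and 14, a square for each of the other 5 and a grey bar for the range of the 9 controls with a dash at their median. The sets are apart and above the control range in ND4L, at 1183 to 2864 RPKM in the 3, and overlap in COX3 and ND3.

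As a share of reads, these RNAs took 2.64%, 2.98% and 2.25% in libraries 4, 12 and 14, against 1.01%, 1.24%, 1.10%, 1.74% and 0.921% in libraries 1, 2, 7, 10 and 11. Controls ran from 0.853% to 2.63%, with control 6 highest. The sets did not overlap, and the two-sided exact permutation p was 0.0357, the smallest that 56 splits allow, or 0.0804 after adjustment over 9 library measures. Ribosomal 5S and 5.8S rows averaged 0.0430% ± 0.0352 in the 3 and 0.00266% ± 0.000878 in the other 5 (SD, n = 3 and 5), with the same exact p and adjusted p. Other small noncoding RNA rows took 0.00686% ± 0.00104 of reads in the 3 and 0.00452% ± 0.000305 in the other 5, again with exact p 0.0357 and adjusted p 0.0804. None of the 9 measures passed 0.05 after adjustment.

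Libraries 4, 12 and 14 also detected fewer genes. After every WNT5A library was thinned to 34.0 M reads, 13129, 14022 and 13898 genes had a read in libraries 4, 12 and 14, against 14484, 14893, 15853, 15489 and 16406 in libraries 1, 2, 7, 10 and 11. Library 4 set that depth, so its count could not change. Without thinning the 3 had 13129, 14038 and 13934 genes, and libraries 1, 2, 7, 10 and 11 had 14672, 15085, 16026, 15669 and 16589. The sets did not overlap at equal depth. The exact permutation p was 0.0357 and the adjusted p 0.0804. Controls, not thinned, had 10055 to 15430 genes, and controls 2, 3 and 6, with 10055, 11127 and 11268, had fewer than any other library. The part of gene detection in the differences described here was not tested beyond thinning. Repeating the gene test on thinned reads gave 994 higher and 1392 lower genes, of which 2328 were among the original 2402 with the same direction.

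The remaining measures showed smaller gaps. Cytosolic ribosomal protein genes took 4.55% ± 0.590 of reads in the 3 and 3.88% ± 0.663 in the other 5 (exact permutation p 0.179, adjusted 0.230). Nuclear genes of oxidative phosphorylation took 2.82% ± 0.509 in the 3 and 3.47% ± 0.267 in the other 5 (exact permutation p 0.143, adjusted 0.214). The 10 most abundant other genes together took 5.43% ± 0.568 in the 3 and 6.04% ± 0.346 in the other 5 (exact permutation p 0.143, adjusted 0.214). Read-weighted gene length averaged 2449 ± 127 bases in the 3 and 2375 ± 116 bases in the other 5, with an exact permutation p of 0.429 (adjusted 0.482). For the read-weighted number of exons, 10.2 ± 0.485 in the 3 and 10.1 ± 0.553 in the other 5, the exact permutation p was 0.821. In each of these 5 measures the ranges of the sets overlapped.

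Genes that rose were longer at the median than genes that fell. Genes that rose had a median of 2752 bases of exon, 10 exons and a genomic span of 22052 bases. Genes that fell had medians of 2054 bases, 8 exons and 10355 bases, and all genes tested 2229 bases, 8 exons and 18080 bases. In the longest quintile of genes, at 3755 to 22749 bases, 303 of 2684 rose (11.3%) and 107 fell (3.99%), with a median difference of 0.12. In the middle quintile, at 1883 to 2622 bases, 131 of 2686 rose (4.88%) and 404 fell (15.0%), with a median of -0.18. The shortest quintile, at 37 to 1193 bases, was less lopsided, with 182 of 2691 higher (6.76%) and 242 lower (8.99%). Library 14 taken singly had a median of 0.11 in the shortest quintile and 0.02 in the longest.

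Length also varied between libraries that were not shallow. Across the 13425 genes, Spearman's rho of the difference with length was 0.144, with span 0.182 and with exon number 0.105. Taken library by library, relative to the mean of the other 5, rho with length ran from -0.0216 to 0.211 in libraries 4, 12 and 14, from -0.378 to 0.401 in the other 5 and from -0.173 to 0.322 in controls. The length relation of the 3 thus lay inside the range of the rest. These values are across genes of the same libraries and carry no p.

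Abundance differed between them as well. By mean level in controls, which the split did not use, the top quintile of genes, at 39.0 RPKM or more, had 666 of 2685 lower (24.8%) and 161 higher (6.0%), with a median difference of -0.23. The next quintile had 386 lower (14.4%) and 201 higher (7.49%). In the 3 lower quintiles, together below 11.8 RPKM, more genes rose than fell: 144 against 63, 223 against 121 and 266 against 171. The median control level was 34.4 RPKM for genes that fell, 7.01 RPKM for genes that rose and 6.98 RPKM for all. RPKM cannot go below 0, and the part of this limit in the counts of low genes was not tested.

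Spearman's rho of the difference with control level was -0.148 at a pseudocount of 1. It was -0.00895 at a pseudocount of 0.1, -0.228 at 5 and 0.0281 in the voom fit, so its sign depended on the scale. Library by library it ran from -0.161 to -0.0349 in libraries 4, 12 and 14, from -0.214 to 0.128 in the other 5 and from -0.0264 to 0.297 in controls.

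Split by length and level at once, the share that rose was highest among long genes of middle level, at 241 of 1856 (13%), where 83 fell (4.47%). Among genes in the longest tertile by length and the lowest tertile by control level, 146 of 1767 rose (8.26%) and 19 fell (1.08%), with a median difference of 0.14. Among genes of middle length in the highest tertile, 90 of 1771 rose (5.08%) and 499 fell (28.2%), with a median of -0.27. Long genes in the highest tertile fell more often than they rose, with 175 of 852 lower (20.5%) and 72 higher (8.45%).

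**Figure D4:**
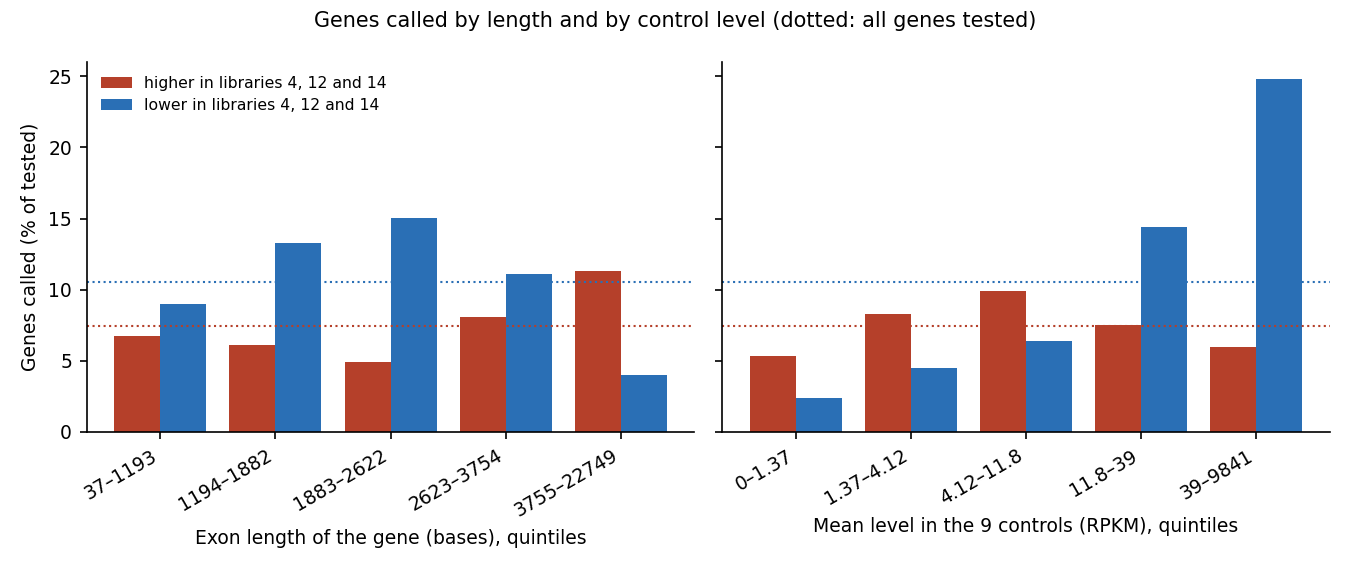
Percent of genes tested that were higher or lower in the 3 shallow WNT5A libraries than in the other 5, by quintiles of exon length in bases (left) and of mean control level in RPKM (right), with dotted lines at the 7.41% higher and 10.5% lower of all genes. In the longest quintile 11.3% were higher and 3.99% lower, and in the most abundant quintile 6.0% were higher and 24.8% lower.

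Ribosome and translation genes split by kind. Of 83 cytosolic ribosomal protein genes tested, out of 85, 21 rose (25.3%) and none fell, beside 7.41% and 10.5% over all genes, and the median difference was 0.21. RPS4X had 501, 629 and 629.8 RPKM in libraries 4, 12 and 14, against 159, 196, 200.1, 328 and 195 RPKM in the other 5 and 152 to 448 RPKM in controls. RPS9 had 722, 745 and 669 RPKM in the 3, against 247, 321, 311, 408 and 235 RPKM in the other 5. Both encode proteins of the small subunit, and neither overlapped between the sets. Their differences were 1.48 ± 0.21 and 1.25 ± 0.18, with limma adjusted p of 0.00105 and 0.00124. RPL7, of the large subunit, differed by 1.0 ± 0.18. The group as a whole was uneven: the median relative to the other 5 was 0.03, 0.15 and 0.57 in libraries 4, 12 and 14, so that of the 3 only library 14 lay above the -0.46 to 0.55 of the other 5. The count was 12 without library 12, 13 without library 1, 7, 11 or 14, and 27 without library 10. Ribosomal protein genes have many pseudogenes, which reads may be shared with.

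Of 51 translation initiation factors, 8 rose (15.7%) and 3 fell (5.88%), or 8 and 8 under median centring. The genes that rose most clearly were EIF4A2, an RNA helicase, EIF3J, EIF2S2, the beta subunit of the factor that brings the initiator tRNA, and EIF5B, which joins the ribosomal subunits. EIF4A2 had 96.5, 96.2 and 91.7 RPKM in the 3, against 34.2, 50.4, 48.8, 42.5 and 40.2 RPKM in the other 5. Its difference was 1.13 ± 0.17 with a limma adjusted p of 0.0012, and EIF3J, EIF2S2 and EIF5B differed by 1.19, 1.18 and 1.10. Aminoacyl-tRNA synthetases, which charge tRNAs, went the other way, with 0 of 20 higher and 6 lower (30%). FARSA, the alpha subunit of the phenylalanine enzyme, had 82.1, 72.0 and 88.6 RPKM in the 3, against 153, 160.1, 155, 124 and 155 RPKM in the other 5, a difference of -0.88 ± 0.15 with a limma adjusted p of 0.00265. CARS1, the cysteine enzyme, differed by -0.90 ± 0.19. Without library 12 the synthetase count was 2 lower, and without library 1, 2 or 7 it was 4.

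Nuclear genes for energy metabolism mostly fell where they changed. Of 79 nuclear genes of oxidative phosphorylation, 13 fell (16.5%) and 1 rose (1.27%), with a median difference of -0.30. Beside these shares, 10.5% of all genes fell, and 24.8% of the top quintile by control level, whose median was -0.23. Whether the list differed from genes of like abundance was not tested. NDUFV1, a core subunit of complex I, had 148, 149.8 and 165 RPKM in libraries 4, 12 and 14, against 305, 302, 329, 282 and 341 RPKM in the other 5. Controls, at 225 to 343 RPKM, lay with the other 5, and the difference was -1.01 ± 0.14 with a limma adjusted p of 0.000715. UQCRC1 and CYC1 of complex III and SDHA of complex II differed by -0.92, -0.68 and -0.88, and the sets did not overlap in any of them. The count of lower genes was 5 without library 4, 6 without library 2 or 7, 7 without library 12, 8 without library 1 and 30 without library 14. Under quantile normalization 19 fell and 8 rose, with a median of -0.19. The median relative to the other 5 was -0.55, -0.35 and 0.11 in libraries 4, 12 and 14, so library 14 differed in sign. It ran from -0.29 to 0.48 in the other 5 taken singly and from -0.70 to 0.90 in controls. The nuclear and the mitochondrially encoded list thus had medians of opposite sign, -0.30 and 1.28, though not in library 14, with 0.11 and 1.12.

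Of 23 genes of glycolysis and glucose uptake, 7 fell (30.4%) and none rose, with a median of -0.34. Beside this share, 10.5% of all genes fell, and 24.8% of the top quintile by control level. Whether this list differed from genes of like abundance was not tested. GPI, the enzyme that turns glucose 6-phosphate into fructose 6-phosphate, had 240.0, 240.2 and 257 RPKM in libraries 4, 12 and 14, against 435, 484, 461, 405 and 457 RPKM in the other 5. ALDOA, an aldolase, had 368, 397 and 381 RPKM in the 3, against 677, 658, 593, 644 and 656 RPKM in the other 5. Both were tight within each set and apart between them, with differences of -0.86 ± 0.13 and -0.75 ± 0.13 and limma adjusted p of 0.00166 and 0.0027. SLC2A1, the glucose transporter GLUT1, had 114, 122 and 119 RPKM in the 3, against 281, 199, 184, 191 and 287 RPKM in the other 5, a difference of -0.92 ± 0.18. Unlike oxidative phosphorylation, the median of this group was below 0 in each of the 3, at -0.25, -0.38 and -0.40, with a range of -0.28 to 0.31 in the other 5 and -0.55 to 0.09 in controls. All 3 thus lay inside the control range, and library 4 inside that of the other 5. The other lower members were PFKL, HK1, ENO1 and PKM, and 5 to 7 of the group fell with each library left out in turn.

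Of 38 proteasome subunits, 8 fell (21.1%) and 1, the ATPase subunit PSMC6, rose, with a median of -0.19, but 3 fell and 5 rose under quantile normalization. The share lower was above that of all genes but below the 24.8% of the top quintile by control level. Lower subunits included PSMD4, a ubiquitin receptor, and the ATPases PSMC3 and PSMC4, which differed by -0.82, -0.63 and -0.59. PSMC6 had 86.4, 74.3 and 72.6 RPKM in the 3, against 43.8, 50.6, 42.8, 43.7 and 39.1 RPKM in the other 5, so 1 ring of related subunits held both directions. Without library 12 no subunit fell, without library 7 there were 3, without library 2 there were 4 and without library 1 there were 5. Of 75 mitochondrial ribosomal proteins, 8 fell (10.7%) and 2 rose (2.67%), a share of lower genes near the background of 10.5%. Their median was -0.13, or 0.01 under quantile normalization, and 3 fell without library 12, 4 without library 4, 5 without library 1 or 7 and 15 without library 14. MRPL38, the member with the smallest p, differed by -0.64 ± 0.13 with a limma adjusted p of 0.00743.

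RNA processing and chromatin genes changed in both directions. Of 84 spliceosome genes, 14 rose (16.7%) and 11 fell (13.1%), and the median was -0.01, or 0.12 under quantile normalization, while under median centring 12 rose and 14 fell. The count of lower genes was 4 without library 12, and 6 without library 1, 2, 7 or 11. SRSF1, a splicing factor that binds exons, had 131, 128 and 108 RPKM in libraries 4, 12 and 14, against 45.7, 35, 47.3, 43.7 and 39.2 RPKM in the other 5. HNRNPA0, an RNA-binding protein of the hnRNP family, had 89.8, 85.9 and 104 RPKM in the 3, against 228, 216, 223, 210.0 and 242 RPKM in the other 5. The values of the sets lay far apart in both genes, in opposite directions, with differences of 1.52 ± 0.16 and -1.26 ± 0.14 and limma adjusted p of 0.000193 and 0.000242. HNRNPL and SF3B2, a subunit of the U2 particle, differed by 1.14 and 1.19.

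Of 55 histone lysine methyltransferases and demethylases, 10 rose (18.2%) and 2 fell (3.64%), with a median of 0.26. SETD1B, which methylates lysine 4 of histone H3, averaged 10.7 ± 3.37 RPKM in the 3 and 2.32 ± 1.11 RPKM in the other 5 (SD, n = 3 and 5). KMT5A and KMT2B rose as well, by 0.94 and 1.41, with limma adjusted p of 0.00715 and 0.00771. KDM6B, which removes methyl groups from lysine 27, and KMT5C are among the 10 but passed the filter through libraries 4, 12 and 14 alone. KDM6B had 6.40, 8.78 and 3.34 RPKM in the 3, against 0.222, 0.385, 0.269, 0.391 and 0.366 RPKM in the other 5. Without library 12, 6 members rose. Of 50 histone genes 3 rose and 4 fell, and of 238 zinc finger genes 17 rose (7.14%) and 16 fell (6.72%), or 14 and 21 under median centring, both near or below the background in each direction. Of the zinc finger genes, 10 or 11 rose without library 2, 7 or 12, and 10 fell without library 1 or 11. Of the 4 histone genes that fell, 1 passed the filter through the other 5 alone.

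Of 56 genes of DNA replication and the cell cycle, 10 fell (17.9%) and 2 rose (3.57%), although the median was -0.04, or 0.03 under quantile normalization, where 7 fell and 6 rose. MCM5 is given above. PLK1, a mitotic kinase, had 75.2, 70.9 and 79.6 RPKM in libraries 4, 12 and 14, against 145, 145, 155, 138 and 150.1 RPKM in the other 5 and 98.3 to 172 RPKM in controls. Its difference was -0.95 ± 0.14, with a limma adjusted p of 0.000937, and no library of the study outside the 3 came as low. POLD2, a subunit of DNA polymerase delta, differed by -0.87, and RFC1, which loads the sliding clamp, by 1.05 in the other direction. Of 32 kinesins 4 rose and 2 fell, of 65 centrosome and cilium genes 6 rose and 2 fell, and of 50 DNA repair genes 2 rose and 2 fell. CEP290, among the 6 centrosome and cilium genes that rose, passed the filter through libraries 4, 12 and 14 alone.

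Junction and polarity genes, by which the morula compacts, had more members that fell. Of 43 tested, 11 fell (25.6%) and 6 rose (14%), beside 10.5% and 7.41% over all genes. In the top quintile by control level 24.8% fell, and whether the list differed from genes of like abundance was not tested. The median was -0.13, or 0.03 under quantile normalization, where 8 fell and 7 rose. Taken singly, libraries 4, 12 and 14 had medians of -0.14, 0.06 and -0.42, against -0.24 to 0.42 in the other 5. Library 12 thus differed in sign, and only library 14 lay below that range. CLDN4, a tight junction claudin, had 200.4, 149 and 257 RPKM in libraries 4, 12 and 14, against 509.8, 326, 416, 538 and 433 RPKM in the other 5. CLDN6 had 1822, 1969 and 2093 RPKM in the 3, against 2829, 2779.9, 2934, 3307 and 2756 RPKM in the other 5, and CLDN3 averaged 24.2 ± 6.52 RPKM in the 3 and 70.7 ± 17.3 RPKM in the other 5 (SD, n = 3 and 5). The claudins did not overlap between the sets, and their differences were -1.14 ± 0.21, -0.57 ± 0.13 and -1.51 ± 0.24 with limma adjusted p of 0.00348, 0.0125 and 0.00169. F11R, a junctional adhesion molecule, had 189, 184 and 191 RPKM in the 3, against 293, 317, 291, 268 and 279 RPKM in the other 5. Between 8 and 13 members fell with each library left out in turn, but only 1 rose without library 2, 7 or 12, 2 without library 1 or 4 and 3 without library 10 or 14.

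Among lineage genes, single members changed in both directions. POU5F1, the pluripotency factor OCT4, had 1125, 1234 and 1220.4 RPKM in libraries 4, 12 and 14, against 1968, 2146, 1968, 2050.2 and 1935 RPKM in the other 5 and 1636 to 2360.1 RPKM in controls. All 3 values lay below every other library of the study, and the difference was -0.75 ± 0.13 with a limma adjusted p of 0.00242. GATA6, a factor of the primitive endoderm, had 185, 214 and 209 RPKM in the 3, against 302, 322, 415, 234 and 425 RPKM in the other 5, a difference of -0.71 ± 0.20 with a limma adjusted p of 0.0271. That call was lost without library 2, 4, 7, 11 or 12, under quantile normalization and in the voom fit. CDX2 and GATA3 of the trophectoderm and NANOG of the epiblast did not pass, with differences of -0.09 ± 0.35, 0.15 ± 0.21 and 0.64 ± 0.42 and limma adjusted p of 0.89, 0.674 and 0.322. KLF4, a pluripotency factor, had 109.6, 122 and 89.8 RPKM in the 3, against 39.9, 50.6, 60.6, 58.7 and 49.7 RPKM in the other 5, and DNMT3B, a DNA methyltransferase, averaged 33.2 ± 3.33 RPKM in the 3 and 14 ± 6.33 RPKM in the other 5. Of 21 pluripotency genes 2 rose (9.52%) and 3 fell (14.3%), or 4 and 2 under quantile normalization. Of 24 trophectoderm genes 3 rose (12.5%) and 4 fell (16.7%), and of 18 primitive endoderm genes 1 rose and 1 fell (5.56% each). Over all genes 7.41% rose and 10.5% fell, so these counts of a few genes were near the background. Of 20 oocyte and maternal-effect genes none passed in either direction in limma.

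Of 53 WNT receptors and intracellular transducers, the machinery that reads the added ligand, 8 rose (15.1%) and 2 fell (3.77%), with a median of 0.12. Over all genes 7.41% rose and 10.5% fell. Under median centring 5 members rose and 3 fell, with a median of 0.03. DVL1, a dishevelled protein that relays the signal from the receptor, had 4.49, 4.54 and 4.46 RPKM in libraries 4, 12 and 14, against 0.198, 0.205, 0.409, 0.0612 and 0.104 RPKM in the other 5. No control exceeded 0.144 RPKM for DVL1. It is 1 of the 8 counted but passed the filter through libraries 4, 12 and 14 alone, so its values are given without a test. GSK3A, a kinase of the beta-catenin destruction complex, had 37.6, 51.0 and 45.2 RPKM in the 3, against 12.7, 7.06, 12.5, 10.6 and 11 RPKM in the other 5. Its difference was 1.97 ± 0.22, with a limma adjusted p of 0.000256. Between 3 and 7 members rose with each library left out in turn: 3 without library 7, 4 without library 2 or 12, and 5 without library 1 or 11.

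Stress genes did not move as a block. Of 33 immediate early and stress response genes, 7 fell (21.2%) and 3 rose (9.09%), with a median of -0.39 that was below 0 in each of the 3, at -0.33, -0.38 and -0.10. Over all genes, 10.5% fell and 7.41% rose. Of the 7 that fell, 1 passed the filter through the other 5 alone. JUN, a subunit of the AP-1 factor, had 10.6, 12 and 5.96 RPKM in libraries 4, 12 and 14, against 28.4, 24.1, 34.5, 39.7 and 39.9 RPKM in the other 5. IER2, another immediate early gene, averaged 70.7 ± 24.2 RPKM in the 3 and 154 ± 17.3 RPKM in the other 5 (SD, n = 3 and 5). ATF3, a stress-induced factor that pairs with JUN, had 64.3, 54.6 and 31.9 RPKM in the 3, against 6.97, 7.37, 8.04, 8.37 and 8.31 RPKM in the other 5. BTG1, an inhibitor of proliferation, had 90.1, 86.2 and 70.5 RPKM in the 3, against 20.2, 18.4, 19.8, 28.5 and 18.6 RPKM in the other 5. ATF3 and BTG1 thus rose by 2.48 ± 0.23 and 1.92 ± 0.19 while JUN differed by -1.73 ± 0.25, with limma adjusted p of 8.59e-05, 0.000113 and 0.0011. The count of lower genes was 4 without library 4.

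Of 76 heat shock proteins and chaperones, 8 rose (10.5%) and 11 fell (14.5%), or 10 and 7 in the voom fit. HSP90B1 and HSP90AA1, chaperones of the endoplasmic reticulum and the cytosol, rose by 0.93 ± 0.17 and 0.83 ± 0.16. HSF1, the factor that activates heat shock genes, had 49.2, 42.9 and 41.0 RPKM in the 3, against 83.9, 87.6, 97.8, 76.1 and 96.0 RPKM in the other 5. Its difference was -0.97 ± 0.15, with a limma adjusted p of 0.0017. The count of lower genes was 3 without library 12, 6 without library 7 and 7 without library 11, and that of higher genes was 5 without library 2 or 7. Of 27 genes of apoptosis and the p53 response 2 rose and 2 fell.

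Membrane traffic and transport lists held some of the sharper single differences. Of 53 RAB GTPases, which direct vesicles, 5 rose (9.43%) and 3 fell (5.66%), with a median of 0.22. RAB11B, of recycling endosomes, had 28.1, 32.8 and 19.5 RPKM in libraries 4, 12 and 14, against 3.20, 2.81, 3.56, 4.53 and 3.88 RPKM in the other 5 and at most 4.42 RPKM in controls. Its difference was 2.58 ± 0.25, with a limma adjusted p of 9.16e-05. The list median lay at 0.18, 0.28 and 0.08 in the 3, at most at 0.06 in the other 5 and at most at 0.15 in controls, above library 14. Nuclear pore genes gave 5 higher and 4 lower of 29, F-box subunits 4 and 5 of 47, later-development homeobox factors 5 and 4 of 63 and cholesterol synthesis genes 1 and 2 of 23. Of the 4 lower homeobox factors, 1 passed the filter through the other 5 alone.

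Small noncoding RNA rows, which poly(A) selection should mostly leave behind, held some of the largest rises and of the largest falls. Of 97 tested, out of 125 rows, 10 rose (10.3%) and 20 fell (20.6%), with a median of 0.06. Over all genes 7.41% rose and 10.5% fell. Of the 10, 1, a 5S ribosomal RNA row, passed the filter through libraries 4, 12 and 14 alone and could only be called higher. Of the 20, 15 passed the filter through the other 5 alone, and on reads thinned to equal depth 12 fell, as at a pseudocount of 5, against 11 under quantile normalization. The sign of that median was not stable, since it was -0.69, -0.21 and -0.36 for libraries 4, 12 and 14 taken singly, -0.03 under median centring and -0.32 in the voom fit. One row named 7SK, the RNA that holds back elongating RNA polymerase II, had 0.0857, 2.14 and 4.40 RPKM in the 3, against 30.1, 22.9, 18.2, 8.13 and 23.7 RPKM in the other 5 and 0.209 to 33.6 RPKM in controls. SNORD34, a guide for ribosomal RNA modification, had a read only in library 12 of the 3, at 2.22 RPKM, against 4.62 to 11.8 RPKM in the other 5 and 0.351 to 20.9 RPKM in controls. Without library 14, 16 rose, and without library 10 or 11, 12 fell. In the voom fit 4 rows rose and none fell, so none of the falls among these short rows was called there.

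**Figure D5:**
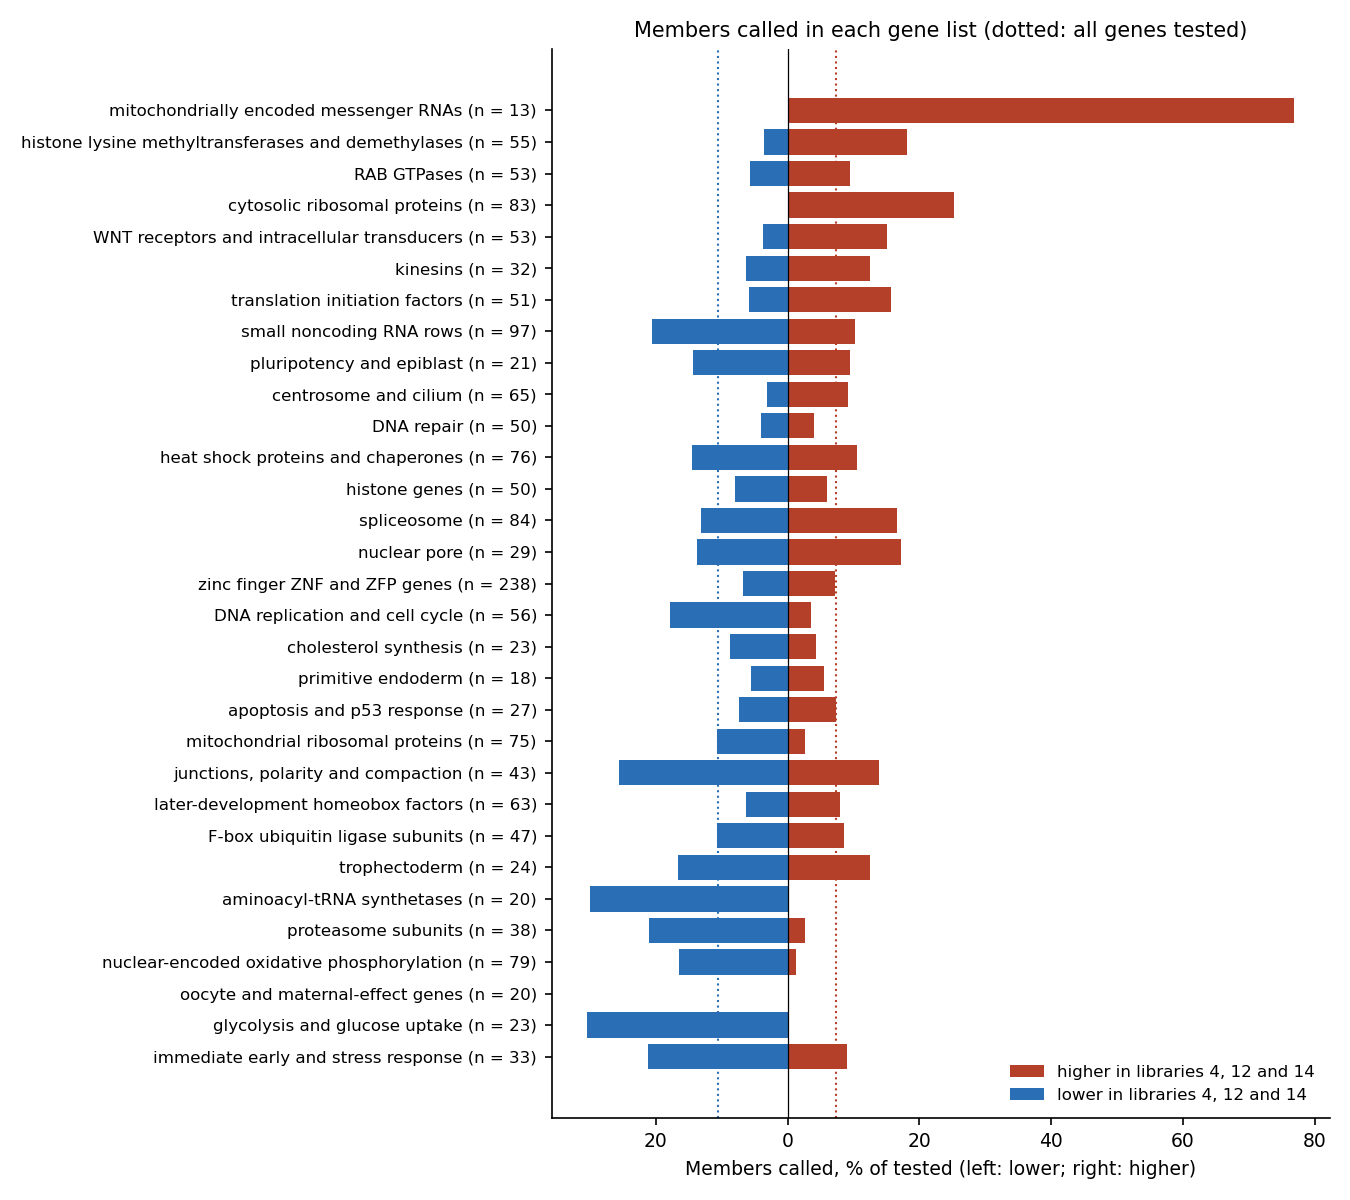
Percent of 31 gene lists that was higher (right) or lower (left) in the 3 shallow WNT5A libraries than in the other 5, with the number of members tested in brackets, ordered by median difference, and dotted lines at 7.41% higher and 10.5% lower for all genes. Mitochondrially encoded messenger RNAs, at 10 of 13, have the largest share higher. Of the 31 lists drawn, which leave out the marker lists of other cell types and the morula, glycolysis has the largest share lower, at 7 of 23.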

How the data were processed

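Libraries were stranded poly(A) RNA-seq of pools of 10 bovine morulae, 9 control and 8 with WNT5A, grouped by the labels. The submitters' processing notes name FastQC, HISAT2, featureCounts and edgeR with the assembly ARS-UCD1.2; the sources used here give no tool version, annotation release or counting strand. RPKM values for 17167 genes were deposited by the authors, with exon lengths. The authors' own log2 fold changes, log2 CPM, likelihood ratio score, p-values and mean RPKM, named per the file headers, were not used. Of per-sample columns, 0 were left unused. Positions carry no chromosome name in the columns read, so none is printed, and base composition was not analysed here.

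RPKM times length was a whole multiple of 1 step per library for 100% of values (tolerance 0.001), and these multiples were taken as reads. A floor of 3 reads covers counting error only, and no molecular identifiers mark which reads are independent. Genes with 0.5 RPKM or more in 3 of 8 libraries were tested (13425, with 3742 left out), so a gene could enter through libraries 4, 12 and 14 alone. Genes were tested with limma 3.58.1 in R 4.3.3 (trend and robust, two-sided) on log2(RPKM + 1), with Benjamini-Hochberg adjustment over all genes tested and a threshold of 0.05, checked on simulated data. Fold differences on this scale understate changes of low genes. Library values were compared by exact permutation in Python 3.11.15 with scipy 1.17.1, and figures drawn with matplotlib 3.10.9.

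The members and the 35 gene lists were chosen with earlier results of these data known, and lists are described by counts and medians without a test. Named were the 10 genes with the largest rise and fall among called, non-overlapping genes with a symbol and at least 5 RPKM, 6 each way at 100 RPKM or more in controls, up to 4 members of each list by p, genes taking 0.5% of reads in the 3, and 5 lineage factors. Some genes that this rule names are not reported here. Alternatives were the pseudocount, filter, scaling, thinning, fit and libraries used, and a voom fit added after seeing the data.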

Additional observations from a re-analysis of the deposited data

Results flagged for a closer look

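Within groups of 4 to 10 libraries, 3 values stood far from the rest of their group, each a gap to its nearest neighbour that was large against the group's whole range. The share of reads on ENSBTAG00000051364 was 0.00381% in control 10, above the other 8 controls but far below the 3.51% to 5.64% of WNT5A libraries 4, 12 and 14. SNORD34 had 11.8 RPKM in WNT5A library 10, above libraries 1, 2, 7 and 11. TRIM68 had 9.92 RPKM in WNT5A library 1, above libraries 2, 7, 10 and 11. Chance alone marks about 1 in 20 such groups. The set of libraries 4, 12 and 14 is too small for this comparison. Both SNORD34 and TRIM68 lay lower in libraries 4, 12 and 14 than in any of the other 5, with or without the high library. For TRIM68, a gene chosen by size of fall, the rule required that separation.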

How the results depend on the processing

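No paired analysis was possible because no library of the 3 shares a replicate number with a library of the other 5. The 2402 genes called became 592 (315 higher, 277 lower) when all 17 libraries shared 1 estimate of spread, of which 588 were among the 2402 with the same direction, and 1327 (743 higher, 584 lower) in the voom fit, of which 1305 were. With each library left out in turn the count ran from 1578 without library 7 to 2556 without library 14, with 682 to 1062 higher and 896 to 1494 lower. Pseudocounts of 0.1 and 5, filters, quantile normalization, median centring, thinning and leaving out genes with 0.5% of reads gave 2029 to 2634. Spearman's rho with control level moved to -0.00895 at a pseudocount of 0.1, -0.228 at 5 and 0.0281 in the voom fit. Of 147 named genes called, 0 were lost on thinned reads, 3 under median centring, 7 under quantile normalization, 33 in the voom fit and 57 with all 17 libraries, and 5 to 19 with 1 library left out, most without library 12. No named gene that passed the test changed sign, but more genes were higher than lower in the voom fit and with all 17 libraries. With 3 libraries of 34.0 to 52.4 M reads, genes near the floor cannot be placed, and with a library of the 3 left out the exact permutation test cannot go below 0.0952.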
